A study of Homo sapiens with 36 samples.

Results

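The subject is the miRNA pair hsa-miR-143-5p and hsa-miR-145-5p, 2 of the 509 mature miRNA names listed in the tables of 7 aneuploid human cell lines. The pair was selected by name, with its listed fold changes known, so its fold changes are given as a description and not as an independent test. Both names come from one cluster on chromosome 5, which is gained in 2 of the lines. hsa-miR-145-5p was listed in 7 of 7 tables and reached a mean of at least 10 normalised reads in 7. hsa-miR-143-5p was listed in 6, reached that mean in 2, and was not listed in the table of HCT116* 3/3 c11.

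Small RNA was sequenced from 36 libraries in 12 groups of 3 to learn what a chromosome gain does to miRNA abundance. HCT116 cells come from a colorectal carcinoma and RPE1 cells from retinal pigment epithelium, the latter immortalised with telomerase, and an asterisk marks cells that express histone H2B fused to GFP. HCT116 5/4 carries 4 copies of chromosome 5 and was compared with HCT116, and both came from another laboratory. HCT116 18/3 c2, HCT116* 3/3 c11 and HCT116* 8/3 c7 carry 3 copies of chromosome 18, 3 or 8, each is a single-cell clone, and all 3 share the HCT116* control libraries. The name of HCT116 18/3 c2 shows no H2B-GFP, and HCT116* is therefore not its parental line. RPE1 5/3 12/3, with 3 copies of chromosomes 5 and 12, was compared with RPE1, and its extra chromosome 12 arose spontaneously. RPE1* 7/3 and RPE1* 21/3 carry 3 copies of chromosome 7 or 21 and were each compared with their own 3 RPE1* libraries. RPE1* 7/3 had also gained chromosomes 9 and 12 spontaneously, so effects of those chromosomes and of chromosome 7 cannot be told apart. Apart from HCT116 5/4, the lines were made by moving a chromosome in from micronucleated donor cells. The study calls the 3 libraries of a group biological replicates, and they are cultures of one line, so errors describe the spread between those.

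MiRNAs are short RNAs cut from hairpin precursors, and bases 2 to 8 of the mature strand, the seed, pair with target mRNAs. miR-143 and miR-145 are made from neighbouring hairpins, are abundant in smooth muscle and other mesenchymal cells, and have been studied as tumour suppressors that are low in colorectal cancer. p53 is known to promote the processing of both. The 5p arm is the main product of the miR-145 hairpin, whereas the main product of the miR-143 hairpin is its 3p arm. No 3p arm of either hairpin was listed, and 12 of the 509 names end in 3p, so the values of miR-143 concern its minor strand.

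The mature strands that were measured are shown first because the pair share a locus but not a seed. They are written from 5′ to 3′ with the seed in capitals, as given by RefSeq for GRCh38.p14.
hsa-miR-143-5p: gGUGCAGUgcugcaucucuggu
hsa-miR-145-5p: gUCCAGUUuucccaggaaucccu
Their lengths are 22 and 23 bases. Among 2370 mature names in the RefSeq table, each of these seeds was found in 1, the miRNA itself. That table lacked the hairpins of some miRNAs listed here, so a miRNA outside it with the same seed would be missed.

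The 2 precursors are shown to place the measured strand in its hairpin. Capitals mark the 5p strand.
MIR143: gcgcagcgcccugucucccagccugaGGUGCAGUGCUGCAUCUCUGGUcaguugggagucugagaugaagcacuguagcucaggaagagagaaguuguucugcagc
MIR145: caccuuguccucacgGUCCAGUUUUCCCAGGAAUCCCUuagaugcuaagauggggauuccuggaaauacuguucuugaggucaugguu
The 5p strand takes up bases 27 to 48 of the 106 in MIR143 and bases 16 to 38 of the 88 in MIR145. By an exact match to GRCh37, the build of the authors' mapping, MIR143 lies at chr5:148808481-148808586 and MIR145 at chr5:148810209-148810296, both on the plus strand. The gap between them is 1622 bases. Both lie inside the long non-coding RNA gene CARMN at chr5:148786252-148812398. Of its 25 annotated transcripts, 3 span the pair. In all 3 the MIR143 hairpin lies in an exon and the MIR145 hairpin in an intron.

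Each table gives the mean of normalised reads over the 3 line and 3 control libraries, a log2 fold change of line over control and its standard error. Values of single libraries are not used here, so group means carry no SD and the error is that of the fold change. A control and a line level were worked out from mean and fold change. The sources used here do not say whether the fold changes were moderated, so the levels, folds and ratios that rest on a low mean, those of hsa-miR-143-5p in HCT116 cells and in the RPE1* 7/3 table above all, are approximate. Because each table was normalised on its own, levels were compared across tables after each group was scaled to a sum of 1000000 reads (RPM). The summed means were 5.56e+06 to 1.12e+07 normalised reads per table. The RPM scale is set mostly by hsa-miR-21-5p and hsa-miR-100-5p, which together took 66.2% to 76.9% of the sum.

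hsa-miR-145-5p was a moderately abundant miRNA in HCT116 cells and in most RPE1 groups. On the RPM scale its level was highest in HCT116, at 359, followed by 206 in HCT116 5/4, 189 in HCT116 18/3 c2 and 174 to 176 in HCT116* by the 3 tables that use these libraries. The RPE1* control of RPE1* 21/3 stood at 143.1, HCT116* 3/3 c11 at 119 and HCT116* 8/3 c7 at 113. RPE1 itself stood at 97.7, RPE1 5/3 12/3 at 81.6 and RPE1* 21/3 at 53.8. The last 2 places belonged to the control of RPE1* 7/3, at 14.6, and to RPE1* 7/3, at 1.19. The levels of different groups cover a range of over 100 times, with HCT116 groups in the first 4 places and the RPE1* 7/3 libraries and their controls apart at the bottom. Neighbours in this order could not be compared against library spread, except where a line stands beside its own control.

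hsa-miR-143-5p had its highest levels in RPE1 cells and low levels in HCT116 cells. It stood at 14.0 RPM in the control of RPE1* 21/3, 11.1 in RPE1, 11.03 in RPE1* 21/3 and 4.19 in RPE1 5/3 12/3. HCT116 followed at 2.90, the control of RPE1* 7/3 at 1.27, HCT116 18/3 c2 at 1.07 and HCT116 5/4 at 0.918. The lowest were HCT116* at 0.643 to 0.935, HCT116* 8/3 c7 at 0.520 and RPE1* 7/3 at 0.376. In normalised reads these low levels are a mean of 9.30 in the RPE1* 7/3 table and 4.55 in the HCT116* 8/3 c7 table, so their order is not resolved. In the RPE1* 7/3 and RPE1* 21/3 tables the means were 9.30 and 101, the former just under the minimum of 10. The table of HCT116* 3/3 c11, which does not list the miRNA, lists no mean under 11.9.

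The ratio of the pair within a group does not depend on the normalisation. Reads of hsa-miR-145-5p outnumbered those of hsa-miR-143-5p 124 times in HCT116 and 188 and 272 times in HCT116* by 2 tables. In the RPE1 controls the ratio was 8.83 for RPE1, 11.5 for the control of RPE1* 7/3 and 10.2 for the control of RPE1* 21/3. The 3 RPE1 control groups were thus close to each other in this ratio and far from HCT116. The ratio was 3.17 in RPE1* 7/3 and 4.88 in RPE1* 21/3, under that of their controls, whereas it was 19.5 in RPE1 5/3 12/3, above that of RPE1. The log2 change of miR-145 minus that of miR-143 was −1.86 in RPE1* 7/3 (95% interval −2.82 to −0.90), −1.06 in RPE1* 21/3 (−1.83 to −0.29) and 1.14 in RPE1 5/3 12/3 (0.21 to 2.08), with the errors of the 2 miRNAs taken as independent. In HCT116 5/4, HCT116 18/3 c2 and HCT116* 8/3 c7 the interval held 0. The listed standard error of miR-143 in RPE1* 7/3 (0.40) was below its counting error (0.46). The ratio in that line is therefore approximate and its interval may be too narrow. The strands differ in length by a base and in how well they are captured, so the ratio compares groups and not the molecules of the 2 miRNAs.

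**Figure D1:**
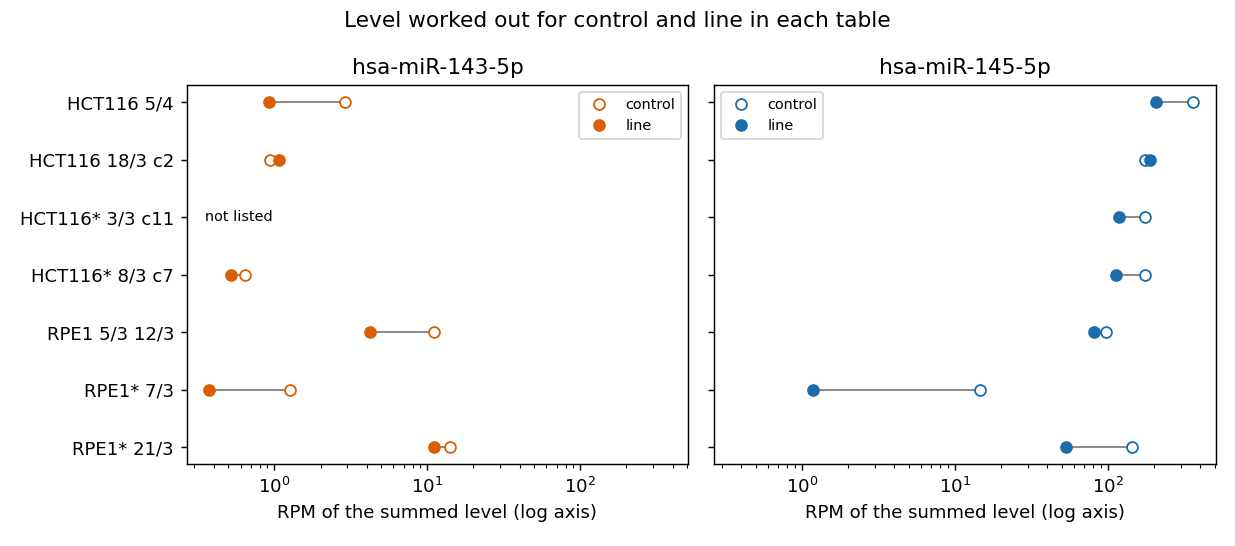
Level of each miRNA in the control (open points) and the line (filled points) of each table, in RPM on a log axis, worked out from mean and fold change. The RPE1* 7/3 table lies far to the left of the other tables for hsa-miR-145-5p, in control (14.6) and line (1.19) alike.

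The log2 fold changes of hsa-miR-145-5p ranged from −3.65 to 0.38. Its level was 166 normalised reads in the control and 13.2 in the line for RPE1* 7/3, a log2 fold change of −3.65 ± 0.29 (SE), or 12.5 times lower (95% interval 8.50 to 18.5). It was the third lowest of 247 tested miRNAs there. In RPE1* 21/3 it went from 1201 to 415 normalised reads, a log2 fold change of −1.53 ± 0.22, or 2.89 times lower (2.13 to 3.92), the fifth lowest of 231. In HCT116* 8/3 c7 it went from 1361 to 895 normalised reads, a log2 fold change of −0.60 ± 0.12, at the edge of the fold change limit. The first 2 lines are thus both RPE1* lines, with large decreases, and the third is an HCT116* line with a small one.

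A miRNA was called where its mean was at least 10, its adjusted p in the authors' table under 0.05 and its absolute log2 fold change at least 0.6. By this rule hsa-miR-145-5p was lower in 3 of 7 lines and higher in 0. In HCT116 18/3 c2 it was higher with an adjusted DESeq2 p of 0.0206, and only the fold change limit kept it from a call. With no fold change limit it was called in 4 lines, that one included. At an unadjusted DESeq2 p under 0.05 it passed in 5 lines and was higher in 1 of these, HCT116 18/3 c2. All tested miRNAs were called lower at a rate of 5.67% in RPE1* 7/3, 4.76% in RPE1* 21/3 and 5.46% in HCT116* 8/3 c7. In the other lines that rate was 3.58% in HCT116* 3/3 c11, 13.5% in RPE1 5/3 12/3, 9.24% in HCT116 5/4 and 9.29% in HCT116 18/3 c2. As the pair was picked with these calls in view, nothing is read from the count. With a t distribution in place of the normal one the call held in 1 line, RPE1* 7/3, and a test against the limit of 0.6 itself lost HCT116* 8/3 c7. With a minimum mean of 100 the call in RPE1* 7/3 was lost, since the mean there is 89.5, and the other 2 calls held.

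In the other 4 lines hsa-miR-145-5p was not called. It went from 1553 to 1396 normalised reads in HCT116 5/4 (log2 fold change −0.15 ± 0.17) and from 1488 to 1114 in HCT116* 3/3 c11 (−0.42 ± 0.19). It went from 1268 to 1646 in HCT116 18/3 c2 (0.38 ± 0.13, below the fold change limit). In RPE1 5/3 12/3 it went from 703 to 900 normalised reads, a log2 fold change of 0.36 ± 0.23 that turned to −0.26 on the RPM scale. The direction in RPE1 5/3 12/3 therefore depends on the scale, because the summed level of all miRNAs was itself higher in that line by 0.62 on the log2 scale. The same sum was higher by 0.65 in HCT116 5/4, where the RPM change of miR-145 was −0.81. The median log2 fold change of all tested miRNAs lay within −0.06 and 0.07 in every table.

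hsa-miR-143-5p was listed below its control in 5 of 6 lines and was called in 0 of the 2 lines where it was tested, with 0 also at an unadjusted p under 0.05 in the DESeq2 tables. Those 2 are RPE1 5/3 12/3, from 79.7 to 46.2 normalised reads (log2 fold change −0.79 ± 0.42), and RPE1* 21/3, from 118 to 85.2 (−0.47 ± 0.32). The miRNA went from 14.4 to 4.18 normalised reads in RPE1* 7/3, a log2 fold change of −1.79 ± 0.40 or 3.45 times lower (2.01 to 5.93), and with no minimum on the mean it would be called there. Its interval lay below 0 in that line and held 0 in the other 5. The remaining log2 fold changes were −1.005 ± 0.62 in HCT116 5/4, 0.47 ± 0.35 in HCT116 18/3 c2 and −0.29 ± 0.32 in HCT116* 8/3 c7, all at means under 10. In RPE1* 7/3, HCT116 18/3 c2 and HCT116* 8/3 c7 the listed standard error of miR-143 was smaller than counting error alone would give at these normalised levels (0.46, 0.42 and 0.55), so the intervals there may be too narrow.

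**Figure D2:**
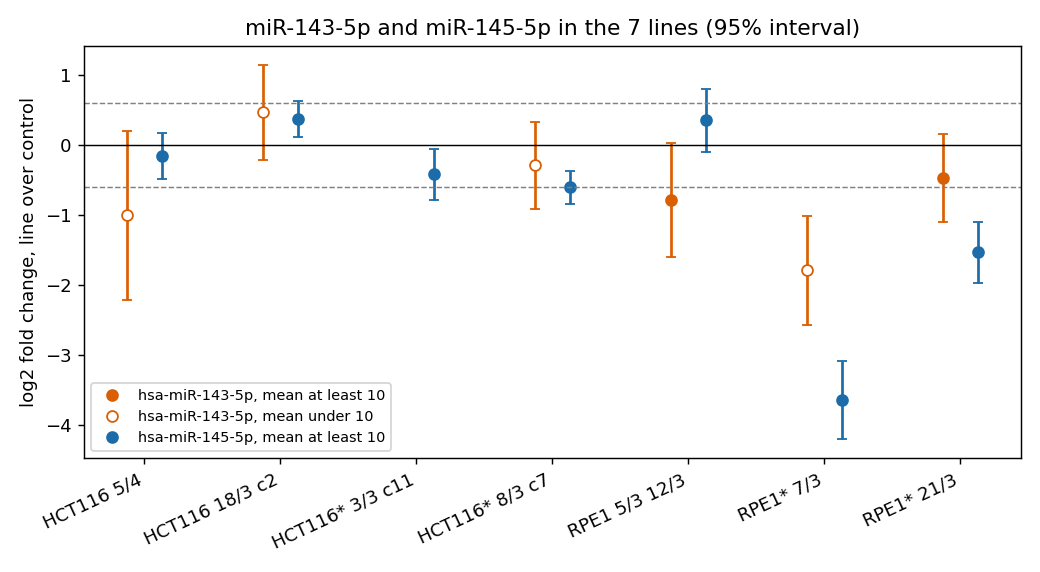
Log2 fold change of line over control for both miRNAs in the 7 lines, with 95% intervals from the listed standard errors and dashed lines at the limits of −0.6 and 0.6; open points have a mean under 10. hsa-miR-145-5p lies at −3.65 in RPE1* 7/3 and at −1.53 in RPE1* 21/3, and both miRNAs lie below 0 in these 2 lines.

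The gain lines and RPE1* 7/3 share no libraries, so their fold changes could be set against each other with independent errors. For hsa-miR-145-5p the mean log2 fold change of HCT116 5/4 and RPE1 5/3 12/3 was 0.10, against −3.65 in RPE1* 7/3. The difference was 3.75 ± 0.32 (SE; 95% interval 3.12 to 4.38), and it was 3.50 ± 0.33 with HCT116 5/4 alone and 4.004 ± 0.37 with RPE1 5/3 12/3 alone. After the median of the other chromosome 5 miRNAs was taken off in each table it was 2.67, and on the RPM scale 3.09. For hsa-miR-143-5p the gain lines had a mean of −0.90 and the difference was 0.89 ± 0.54 (−0.17 to 1.96), an interval that holds 0. That difference turned to −0.18 once the median of the other chromosome 5 miRNAs was taken off. The listed value of miR-145 in RPE1* 7/3 thus lay below that of each gain line, and below their mean on the other scales tried. For miR-143 no such difference was resolved. RPE1* 7/3 was named for this contrast together with the pair, with earlier results of these data known. The differences are therefore a description and not a test.

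An extra chromosome 5 was not matched by a rise of both miRNAs. With 4 copies in place of 2 the log2 copy ratio in HCT116 5/4 is 1, and the intervals of hsa-miR-145-5p (−0.49 to 0.18) and hsa-miR-143-5p (−2.21 to 0.20) both lay below it. With 3 copies in place of 2 the log2 copy ratio in RPE1 5/3 12/3 is 0.58. The interval of hsa-miR-145-5p there (−0.10 to 0.81) held both 0 and 0.58. On the RPM scale an interval from the same standard error (−0.71 to 0.19) held 0 and not 0.58. It carries no error for the RPM sum, so 0.58 cannot be called excluded on that scale. The interval of hsa-miR-143-5p (−1.60 to 0.03) lay below 0.58. Copy number of the cluster itself was not measured here.

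The other miRNAs of chromosome 5 varied widely in the gain lines, and no difference between them as a group and the pair was tested. Of the 19 other listed names that lie on chromosome 5 alone, 6 of 10 tested were called higher in HCT116 5/4, where 18.5% of all tested miRNAs were, and the median log2 fold change of the 10 was 1.504 against 0.04 for all. In RPE1 5/3 12/3, 3 of 9 were called higher beside 16.9% of all, with a median of 0.70 against 0.07. The count was 1 of 8 in RPE1* 7/3 beside 7.29% of all, with a median of 0.03 against −0.04. None of these other miRNAs was called lower in the 3 lines. Some had fold changes close to that of hsa-miR-145-5p, such as hsa-miR-2277-5p (−0.21) and hsa-miR-378h (−0.20) in HCT116 5/4 and hsa-miR-340-5p (0.32) in RPE1 5/3 12/3, none of them called. The called ones in HCT116 5/4 were hsa-miR-1271-5p (log2 fold change 6.60), the adjacent hsa-miR-449c-5p (2.66), hsa-miR-449a (3.01) and hsa-miR-449b-5p (2.31), relatives of miR-34, hsa-miR-584-5p (2.68) and hsa-miR-378a-5p (0.69). In RPE1 5/3 12/3 they were hsa-miR-146a-5p (3.47), which acts in inflammatory signalling, hsa-miR-1271-5p (1.65) and hsa-miR-584-5p (1.16). In RPE1* 7/3 it was hsa-miR-584-5p (1.00).

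The nearest listed miRNAs allow a comparison within the same stretch of the chromosome. hsa-miR-584-5p lies 367 kb before the cluster at chr5:148441876-148441972, in an intron of SH3TC2. hsa-miR-378a-5p lies 302 kb after it at chr5:149112388-149112453, in an intron of PPARGC1B, a coactivator of mitochondrial genes. In HCT116 5/4 the log2 fold change of hsa-miR-145-5p differed from that of hsa-miR-584-5p by −2.83 ± 0.25 (95% interval −3.33 to −2.33) and from that of hsa-miR-378a-5p by −0.85 ± 0.27 (−1.38 to −0.32). In RPE1 5/3 12/3 the same differences were −0.80 ± 0.34 (−1.47 to −0.13) and −0.32 ± 0.49 (−1.28 to 0.64), the latter not resolved. In RPE1* 7/3, where chromosome 5 is not gained by the labels, they were −4.64 ± 0.31 and −3.45 ± 0.43. For hsa-miR-143-5p the 6 differences ranged from −3.68 to −1.46 and all their intervals lay below 0. In HCT116 5/4 and RPE1* 7/3 they rest on means of miR-143 under 10 (9.37 and 9.30). The intervals in RPE1* 7/3 may also be too narrow, since its listed error is below counting error. None of the differences for either miRNA depends on the normalisation, and the errors of the 2 miRNAs compared were taken as independent.

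**Figure D3:**
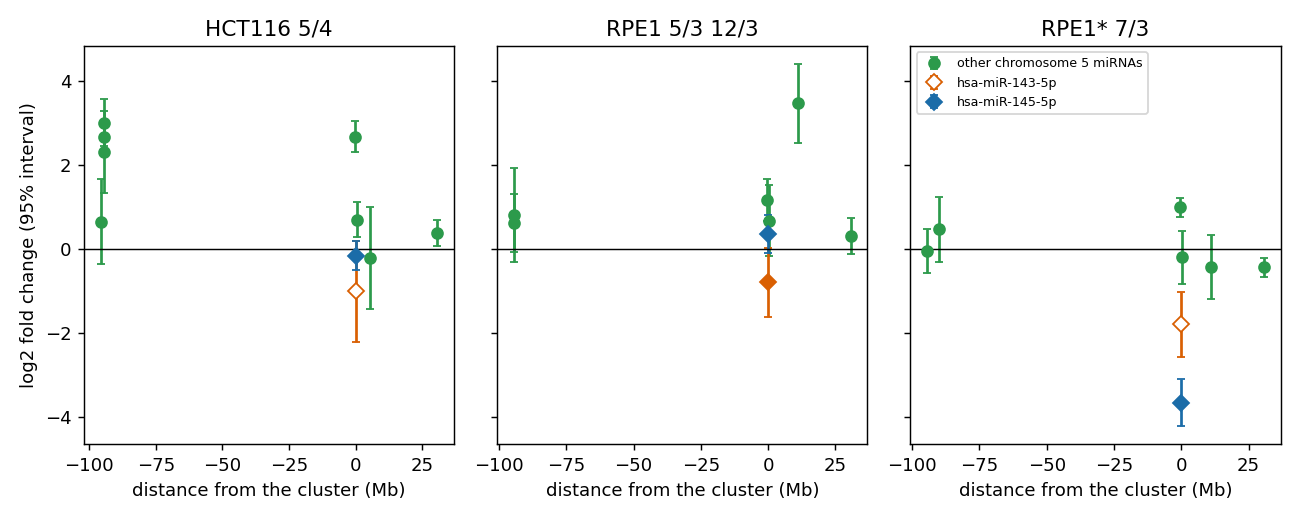
Log2 fold change with 95% interval of the chromosome 5 miRNAs against their distance from the miR-143 and miR-145 cluster, in both lines that gained chromosome 5 and in RPE1* 7/3; open diamonds have a mean under 10, and hsa-miR-1271-5p, hsa-miR-2277-5p and hsa-miR-3661, whose hairpins were not placed, are not drawn. At distance 0 the pair lies below hsa-miR-584-5p in all 3 panels.

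Among all miRNAs of a table, hsa-miR-145-5p stood near the lower end in the RPE1* lines and within the bulk in the gain lines. It was at place 101 from the lowest of 249 tested miRNAs in HCT116 5/4 and at place 160 of 237 in RPE1 5/3 12/3. It was at place 223 of 280 in HCT116 18/3 c2, 41 of 279 in HCT116* 3/3 c11 and 18 of 293 in HCT116* 8/3 c7. For RPE1* 7/3, 5 of the 247 tested miRNAs had a lower fold change than hsa-miR-143-5p.

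**Figure D4:**
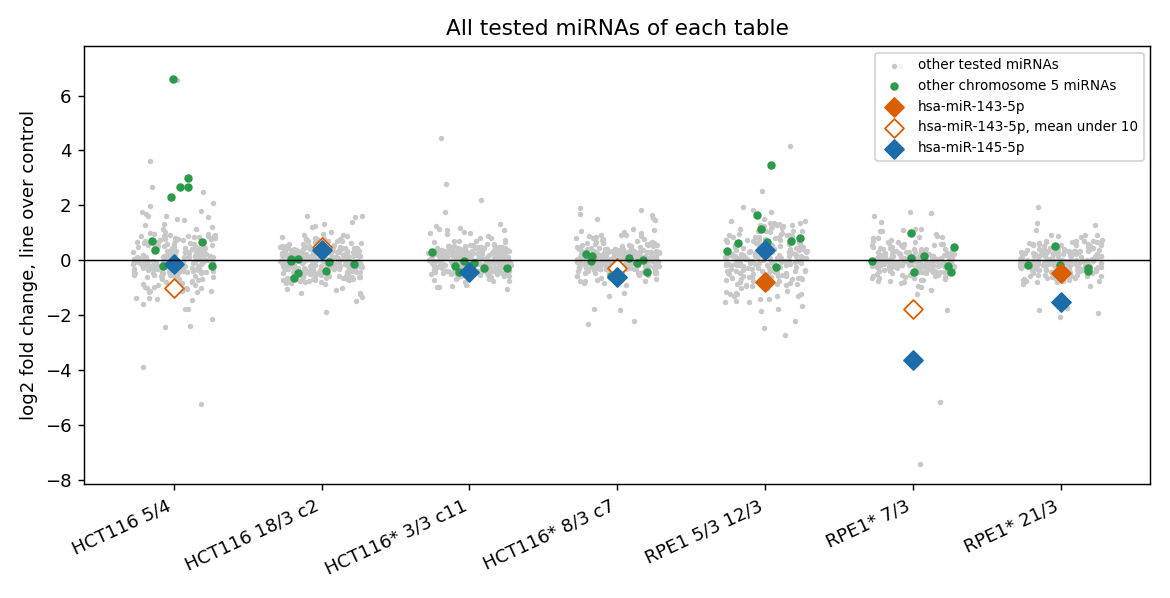
Log2 fold change of every tested miRNA in each table (grey points, spread sideways at random), with the other chromosome 5 miRNAs in green and the pair as diamonds, open where the mean is under 10. hsa-miR-145-5p sits near the lower end in RPE1* 7/3 (−3.65) and RPE1* 21/3 (−1.53), and within the bulk in HCT116 5/4 (−0.15) and RPE1 5/3 12/3 (0.36).

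The controls of RPE1* 7/3 and RPE1* 21/3 are both RPE1* cells by the labels, yet they differed in both miRNAs. In RPM, the control of RPE1* 7/3 had 9.78 times less hsa-miR-145-5p than the control of RPE1* 21/3 (14.6 against 143.1) and 11.03 times less hsa-miR-143-5p (1.27 against 14.0). On the log2 scale these differences were −3.29 and −3.46. Over 217 miRNAs with a mean of at least 10 in both tables the median difference was −0.20, with quartiles at −0.93 and 0.58, and hsa-miR-145-5p was the second lowest. The decrease in RPE1* 7/3 thus started from a control that was already low, and RPE1 (97.7 and 11.1 RPM) stood closer to the control of RPE1* 21/3. The 2 control groups were normalised and mapped in separate runs, and what sets them apart was not tested.

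**Figure D5:**
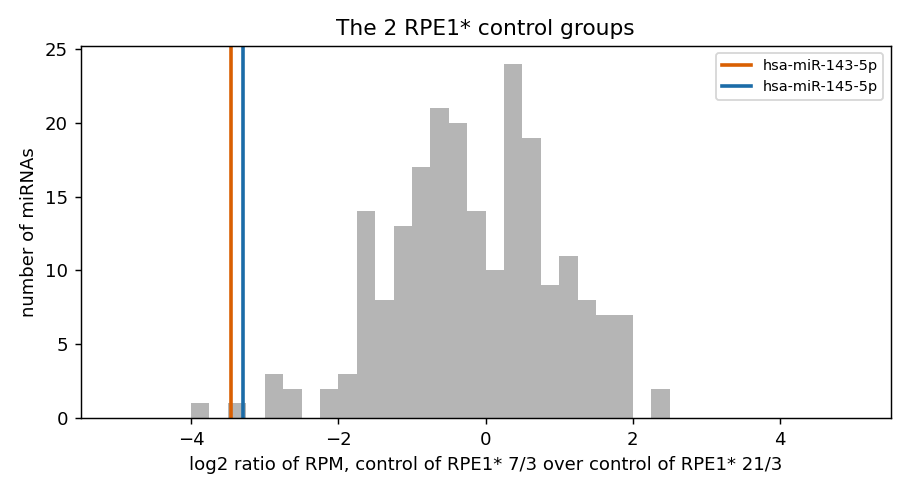
Number of miRNAs by the log2 ratio of their RPM in both RPE1* control groups (control of RPE1* 7/3 over control of RPE1* 21/3), with a vertical line for each of the pair. hsa-miR-143-5p (−3.46) and hsa-miR-145-5p (−3.29) lie at the far left, while the median is −0.20.

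The cell identities were checked on miRNAs typical of each background. hsa-miR-204-5p, a miRNA of pigment epithelium, stood at 453 to 930 RPM in the RPE1 controls and at 2.15 to 4.63 in the HCT116 controls. The listed epithelial miRNAs, mainly the miR-200 family and the miR-192, miR-194 and miR-215 group, summed to 2239 to 3226 RPM in the HCT116 controls and 172 to 227 in the RPE1 controls. hsa-miR-141-5p and hsa-miR-200c-5p were not listed in any RPE1 table. Summed without hsa-miR-21-5p and hsa-miR-100-5p, the listed mesenchymal and stromal miRNAs overlapped between the backgrounds, though single members differed. The sum was 7424 to 11924 RPM in the HCT116 controls and 5845 to 9892 in the RPE1 controls. hsa-miR-125b-5p alone stood at 3481 to 9638 RPM in the controls. Within that list, hsa-miR-10b-5p was higher in the HCT116 controls (2269 to 3646 RPM) than in the RPE1 controls (24.0 to 80.0). hsa-miR-199b-5p stood at 24.0 to 45.2 RPM in the HCT116 controls and was not listed for RPE1 lines. hsa-miR-22-5p (15.1 to 25.3 RPM in HCT116 controls, 49.4 to 65.9 in RPE1 controls) and hsa-miR-100-5p went the other way. hsa-miR-199a-5p stood at 0.203 to 1.25 RPM where listed and hsa-miR-214-5p was not listed in any table. In RPE1* 7/3, beside the decrease of hsa-miR-145-5p, hsa-miR-204-5p was called higher with a log2 fold change of 1.06 ± 0.15, and hsa-miR-211-5p had 0.75 ± 0.34. Their part in the result was not tested, and in bulk samples fewer cells of a type and less RNA per cell cannot be told apart.

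The other mesenchymal and p53-linked miRNAs were counted in the RPE1* lines. In RPE1* 7/3 none of those tested was called lower, beside 5.67% of all tested miRNAs, so over lists this short the count says little. Of the listed mesenchymal and stromal miRNAs other than the pair, 0 of 6 tested were called there in the authors' DESeq2 table. At an unadjusted p under 0.05 there were 2, hsa-miR-22-5p (0.48 ± 0.13) and hsa-miR-10b-5p (−0.42 ± 0.16), both under the fold change limit. Their median log2 fold change was 0.02 against −0.04 for all. In RPE1* 21/3, 1 of 6 was called higher, hsa-miR-22-5p at 0.60, beside 3.90% of all, and 1 lower, hsa-miR-218-5p at −0.95, beside 4.76% of all. Of the p53-linked miRNAs, which include the miR-34 family known as direct p53 targets, 2 of 7 were called higher in RPE1* 7/3, beside 7.29% of all, and 0 lower. They were hsa-miR-34a-5p, with 1.39 ± 0.13, and hsa-miR-34c-5p, with 1.73 ± 0.25. In RPE1* 21/3, 0 of 7 p53-linked miRNAs were called in the DESeq2 table (2 at an unadjusted p under 0.05) and their median was −0.34 against −0.06 for all. The epithelial list had 0 of 3 called in either line, and 0 at an unadjusted p under 0.05. Over the 7 tables the called shares were 19.6% for the other chromosome 5 miRNAs and 28.9% for the epithelial list. They were 23.9% for the mesenchymal and 32.7% for the p53-linked list, beside 17.3% of all 1816 tested values. The epithelial and p53-linked lists overlap, since both hold hsa-miR-215 and the 5p strands of miR-194 and miR-192. Calls of these shared miRNAs enter both shares, so the 2 shares are not independent. Each miRNA can also count once per table, and some tables share control libraries.

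The miRNAs whose fold changes most resembled those of hsa-miR-145-5p over the 7 lines, by Pearson's r among 172 miRNAs with a mean of at least 10 in every table, were hsa-miR-1260a (r = 0.89), hsa-miR-1260b (0.85) and hsa-miR-4286 (0.85). Without RPE1* 7/3 their r was 0.47, 0.47 and 0.88, so the likeness of the first 2 rested on that line. The ranking as a whole rested on it too, since without RPE1* 7/3 none of the 3 stayed among the nearest, which became hsa-miR-16-5p, hsa-miR-15b-5p and hsa-miR-20a-5p. In RPE1* 7/3 the log2 fold changes of hsa-miR-1260a, hsa-miR-1260b and hsa-miR-4286 were −0.81, −0.76 and −0.97, smaller in size than that of miR-145. For hsa-miR-143-5p over 6 lines the most similar by r were hsa-miR-561-5p (0.83), hsa-miR-1260b (0.83) and hsa-miR-574-5p (0.79) among 173. Without RPE1* 7/3 the r of these was 0.87, 0.54 and 0.68, and 1 of the 3, hsa-miR-561-5p, stayed among the nearest. Between the pair itself r was 0.71 over 6 lines and 0.16 over the 5 without RPE1* 7/3. These are descriptions over few lines, of which HCT116 18/3 c2 and HCT116* 8/3 c7 share control libraries.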

How the data were processed

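The authors trimmed reads, removed adapters with cutadapt, mapped to hg19 and counted miRBase miRNAs with mirdeep2, running the 6 libraries of a line and its control together. The deposited tables hold the authors' DESeq2 results (version not given in the sources used here). Their mean is a signal, counts divided by size factors and averaged by the authors over 6 libraries. The log2 fold change in the deposited tables is the authors' estimate and comes with a standard error. Their ratio is the deposited score, whose normal p is the deposited p-value, Benjamini-Hochberg adjusted over each table, as checked on the values. For 3 lines the authors added the replicate number as a term. Whether fold changes were moderated is not given in the sources used here. Listed standard errors lay below counting error for 155 of 403 miRNAs in RPE1* 7/3 and 38 of 273 in RPE1* 21/3. The counts were 143 of 409 in HCT116 18/3 c2 and 164 of 434 in HCT116* 8/3 c7. They were 4 of 358 in HCT116 5/4, 0 of 297 in RPE1 5/3 12/3 and 0 of 279 in HCT116* 3/3 c11. Fold changes at low means may therefore not be comparable between lines, and the reason was not tested. The planned count model was not possible without counts of single libraries, so the deposited comparisons were described.

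Levels were worked out as control = 2 × mean / (1 + fold), line = control × fold, and the step was tested on simulated data. Intervals are 95%, normal. The members and lists were chosen with earlier results of these data known. Named miRNAs are the pair, the 3 most similar by Pearson's r, called chromosome 5 miRNAs in 3 lines, list members called in RPE1* 7/3 and neighbours by mean; others were named after their values were seen. Chromosomes came from RefSeq tables, where 495 of 509 names matched and 466 had a single chromosome, and genes from GENCODE 44 on GRCh37. Depth of single libraries is unknown here. Software was scipy 1.17.1, pandas 2.3.3, numpy 2.4.6 and matplotlib 3.10.9 under Python 3.11.15.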

Additional observations from a re-analysis of the deposited data

How the results depend on the processing

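Settings were varied for the calls, fold changes, the difference between the gain lines and RPE1* 7/3 and the list counts. With no minimum on the mean, hsa-miR-143-5p was called in 1 line, RPE1* 7/3, in place of 0. With a t distribution hsa-miR-145-5p was called in 1 line in place of 3. Its log2 fold change in RPE1 5/3 12/3 reversed from 0.36 to −0.27 when centred on the mean-weighted average and to −0.26 on the RPM scale, a scale added after seeing the data. The difference between gain lines and RPE1* 7/3 went from 3.75 to 2.67 for hsa-miR-145-5p when set against the other chromosome 5 miRNAs and to 3.09 on the RPM scale. For hsa-miR-143-5p it reversed from 0.89 to −0.18 and went to 0.23. With no fold change limit the list calls rose from 11 to 17 for chromosome 5 and from 11 to 20 for the mesenchymal list. Of 156 values of single fold changes under all settings, 147 kept direction and call, 5 lost the call, 2 gained it and 2 reversed. The cause of these changes was not tested. Most settings changed only the calling rule and left the fold change as listed, so its direction was fixed under them. Stricter settings could not add a call either, so the 147 is not a measure of robustness. No paired analysis was possible because the tables hold no values of single libraries, and for the same reason no replicate could be left out. Depth limits hsa-miR-143-5p, whose counting error alone is up to 0.55 on the log2 scale.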

Other observations

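By mean, hsa-miR-145-5p ranked between place 66 and 88 in 6 of the 7 tables and at place 151 of 403 in that of RPE1* 7/3. Its neighbours in rank there were hsa-miR-1246 (mean 89.7 normalised reads) and hsa-miR-539-5p (88.1), against 89.5 for hsa-miR-145-5p. In RPE1* 21/3 they were hsa-miR-374a-5p (855) and hsa-miR-361-5p (800), against 808. hsa-miR-143-5p ranked at place 139 of 273 in RPE1* 21/3, beside hsa-miR-34c-5p (103) and hsa-miR-942 (97.9), and at place 251 of 403 in RPE1* 7/3. In HCT116 5/4 it ranked at place 259 of 358, beside hsa-miR-190b (9.40) and hsa-miR-4671-5p (9.34).

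The control level of hsa-miR-145-5p in the HCT116* libraries, worked out from 3 separate tables, was 1268 to 1488 normalised reads, or 174 to 176 RPM. For hsa-miR-143-5p it was 5.01 to 6.73 normalised reads by 2 tables.

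When likeness was measured by the root mean square difference of the fold changes, the miRNAs nearest to hsa-miR-145-5p were hsa-miR-196a-5p (1.08), hsa-miR-4286 (1.19) and hsa-miR-625-5p (1.20), with hsa-miR-4286 the one shared with the ranking by r. Those nearest to hsa-miR-143-5p were hsa-miR-335-5p (0.48), hsa-miR-877-5p (0.58) and hsa-miR-18a-5p (0.70), and 0 of these were shared.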
